A study of Homo sapiens with 6 samples.

Results

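The regions described here are the 639 stretches of distal chromosome 8 at which the authors' software found different amounts of H3K27me3 in OTX2high and OTX2low D283 cells. They are all regions of the H3K27me3 differential table that lie on chromosome 8 and start at position 70000000 or beyond, and they make up 639 of the 5401 regions in that table. D283, an established line of Group 3 medulloblastoma, was grown as tumorspheres in serum-free neural precursor medium with growth factors. In the OTX2low cells OTX2, a homeobox transcription factor, was silenced with 30 nM siRNA, and the OTX2high cells received a scramble siRNA. One ChIP-seq library per condition was made for H3K27me3 and for H3K4me3, a mark of active and poised promoters, and 2 further libraries were made with control IgG, which has no chromatin target. All libraries come from this 1 line, the labels give no time after silencing, and no condition has a replicate.

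H3K27me3 is the trimethylation of lysine 27 of histone H3. It is laid down by Polycomb repressive complex 2 and covers silent genes, most densely the promoters of developmental regulators. A region is called enriched in the mark when the antibody recovers more reads from it than IgG does. The IgG library follows whatever sets the number of reads a stretch of genome yields without a specific antibody, including the number of copies of that stretch and how well reads can be placed on it.

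The direction of every H3K27me3 difference below follows the names in the differential table. The 2 H3K27me3 peak lists carry header names opposite to their sample labels. The list labelled OTX2high is named OTX2low in its header, with 40271458 tags and 158878 peaks, and the list labelled OTX2low is named OTX2high, with 33885628 tags and 102810 peaks. The list named OTX2low in its header has the same number of control tags, 55079542, as the H3K4me3 list whose label and header both say OTX2low, and the list named OTX2high shares 85840108 with the H3K4me3 list of OTX2high. These control counts go with the header names, and which H3K27me3 library is which was not settled. If the sample labels hold, every H3K27me3 direction given here is the reverse. The titles and the silencing labels of the 2 IgG libraries also name opposite conditions, so IgG values are given by the condition the differential table pairs them with. H3K4me3 peaks lay at an end of 8 of 11 Group 3 and photoreceptor genes in OTX2high and of 7 in OTX2low, OTX2, CRX, NEUROD1 and MYC among them in both. All 4 listed genes of granule neurons and the SHH group of medulloblastoma (ATOH1, BARHL1, ZIC1 and GLI1) also had such a peak in both conditions. These peaks therefore do not set Group 3 apart from the SHH group. Of 13 markers of other cells, 3 had such a peak in OTX2high (CDH5, COL1A1 and MYOD1) and 4 in OTX2low (these and AQP4), while the blood cell genes PTPRC, CD3E and HBB had none.

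Distal chromosome 8 held a dense and one-sided set of differential regions. Of the 639 regions, 582 had more H3K27me3 reads in OTX2high (91.1%, against 57.5% of all regions in the table) and 57 had more in OTX2low (against 42.5%). The regions lay at 8.51 per Mb, against 1.59 per Mb on the other chromosomes and 2.03 per Mb on chromosome 8 before the boundary. They covered 12.7% of distal chromosome 8, against 3.2% of the other chromosomes. The smallest of them measured 10 kb, the window of the search, and the largest 126 kb, with a median of 13 kb. At a stricter adjusted p of at most 1e-06 in the authors' deposited table, 86 regions were left, 67 of them higher in OTX2high (77.9%, against 57.2% of all regions at that threshold), at 1.15 per Mb against 0.459 per Mb elsewhere.

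The differences themselves were small. The median log2 ratio of OTX2high over OTX2low reads was 0.57 for the 639 regions, with 10% of regions below 0.43 and 10% above 0.64. The median over all 5401 regions was 0.48, because the table as a whole leans to OTX2high, and the mean window count in the table's header was itself 0.21 higher in OTX2high on the log2 scale after scaling. Recentred on the median of all regions, 552 of the 639 distal regions were still above 0, against 50.0% of all regions, a share that the recentring sets. Most of the 552 are regions already called higher in OTX2high, so this count is no separate result. A difference of at least 1.5-fold was reached by 236 regions in the direction of OTX2high (26.4% of all regions in the table did so) and by 1 region in the direction of OTX2low (3% of all regions). Among regions higher in OTX2high, the median log2 ratio was 0.57 on distal chromosome 8 and 0.58 on the other chromosomes. Both sets come from the same search with the same p cutoff, at similar read counts, which limits how small a called ratio can be. The likeness of the medians is therefore no measure of the underlying difference. With 1 library per condition no test between conditions could be made, and the 95% intervals given for single regions cover counting error only.

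The IgG density of these regions was high. The scaled IgG reads per kb had a median of 31.5 in OTX2high, with quartiles of 27.1 and 34.3, against 13.5 with quartiles of 10.5 and 17 in the regions of the other chromosomes. In OTX2low the medians were 28.5 and 12.4. The distal regions were therefore 2.34 times as dense in IgG reads as the regions elsewhere in OTX2high and 2.3 times in OTX2low, and chromosome 8 before the boundary, at 12.4 and 11.6 reads per kb, was not raised. Among chromosomes 1 to 22 and X, chromosome 1 followed at 17.8 reads per kb in OTX2high, chromosome 17 at 16.5 and chromosome 13 at 15.3, while chromosomes 7 and X were lowest at 6.97 and 6.7. Chromosome Y, with 27 regions, had a median of 23.2 in OTX2high and 27.3 in OTX2low, and the single mitochondrial region had 794.9 and 1032.

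**Figure D1:**
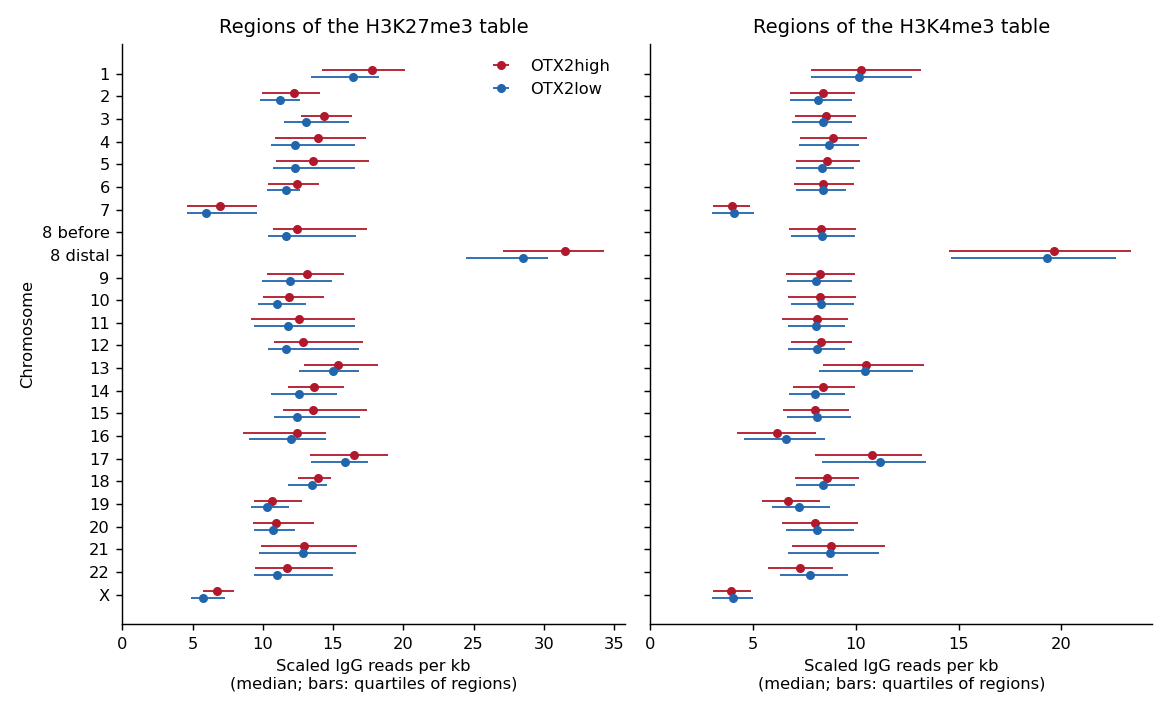
IgG density of differential regions by chromosome, in scaled IgG reads per kb, for the H3K27me3 table (left) and the H3K4me3 table (right). Points are medians over regions, bars run from the lower to the upper quartile, and red and blue stand for OTX2high and OTX2low. Distal chromosome 8 stands at 31.5 and 28.5 reads per kb on the left and at 19.6 and 19.3 on the right, above the other chromosomes plotted. Chromosome Y and the mitochondrial genome are not plotted, and chromosome Y was higher in the H3K4me3 table, at 32.4 and 44.5 reads per kb.

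The same rise was read from the H3K4me3 regions, which were called in other windows. The IgG libraries are the same for both marks, so this is a reading at other positions and no independent measure. The 739 H3K4me3 regions of distal chromosome 8 had median IgG densities of 19.6 reads per kb in OTX2high and 19.3 in OTX2low, 2.35 and 2.33 times those on the other chromosomes. Their directions were near the background of their table: 522 of the 739 were higher in OTX2high (70.6%, against 73.9% of all H3K4me3 regions) and 217 in OTX2low (against 26.1%).

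The raised IgG density had sharp ends. Both tables together were split into stretches of even IgG density, a division made after the values were seen. Density rose between a region ending at 72799700, at 1.34 times the level of other chromosomes in OTX2high and 0.94 times in OTX2low, and a region starting at 72873001, at 2.39 and 3.37 times. Both lie in KCNB2 (72537225 to 72938349), the gene of a delayed rectifier potassium channel. It fell back between a region ending at 127741400, at 2.71 and 2.66 times, and one starting at 127746901, at 1.13 and 1.06 times. The first of these lies inside MYC (127735434 to 127742951), the oncogene of the bHLH family, and the other just beyond it. The raised stretch was 54.9 Mb long, and these 2 ends were the same with IgG of either condition and with weaker penalties on the number of stretches. The region just outside each end was a short H3K4me3 region with few IgG reads, at 11.2 and 9.47 per kb in OTX2high. Its single value is therefore imprecise. With OTX2low IgG, the last region with enough IgG reads before the rise ended at 72780200.

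Within the raised stretch the density was not flat. It stood at 3.61 times the level of other chromosomes in the first 0.0717 Mb, at 2.09 times up to 77.1 Mb, at 2.53 times from 77.3 to 115.1 Mb, at 2.01 times from 115.2 to 127.2 Mb and at 3.9 times in the last 0.443 Mb before its end in MYC. A short array of REXO1L pseudogenes inside it, from 85636001 to 85835000, stood at 10.2 times. Beyond MYC the density was 1.07 times that of other chromosomes up to 141.5 Mb and 0.64 times from there to 145 Mb.

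**Figure D2:**
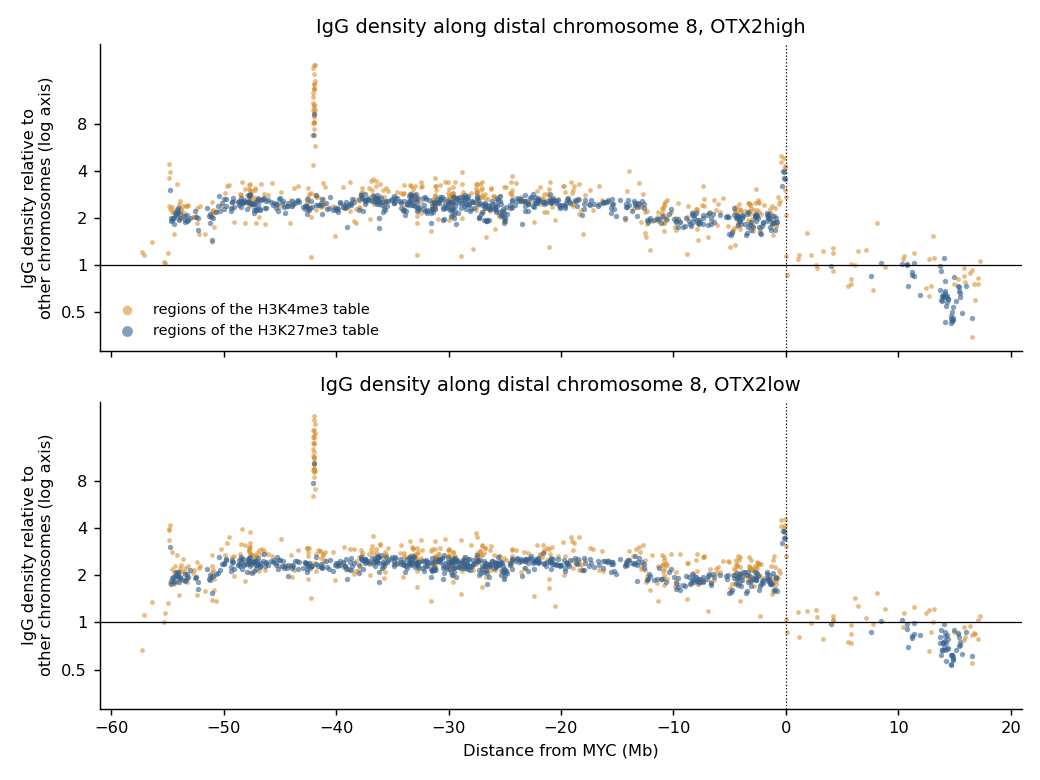
IgG density along distal chromosome 8 in OTX2high (top) and OTX2low (bottom), relative to the median of the same table on the other chromosomes, on a log axis, against the distance from MYC in Mb. Each point is 1 differential region with at least 10 scaled IgG reads (blue, H3K27me3 table; orange, H3K4me3 table). Median density is about 2.0 to 2.5 times over most of the 54.9 Mb before MYC (dotted line), is higher at both ends of the stretch (3.61 and 3.9 times) and in the narrow REXO1L array (10.2 times), and returns to the level of other chromosomes right after it.

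The H3K27me3 regions followed these ends. The raised stretch held 589 of the 639 regions, at 10.7 per Mb, and 572 of these were higher in OTX2high. No region lay between 70 Mb and the start of the stretch. The last region before the 70 Mb boundary, at 68360001 to 68372000, had 213.81 normalised reads in OTX2high and 140.81 in OTX2low and an IgG density of 14.3 reads per kb in OTX2high. The first one past the boundary, at 72934001 to 72944000 in KCNB2, had 320.14 and 218.65 reads and an IgG density of 40.5. Beyond the stretch lay 50 regions, at 2.89 per Mb, of which 10 were higher in OTX2high and 40 in OTX2low. Among the 639 regions, the widest gap between neighbours was 4108 kb, from 127659000 to 131767001. It spans MYC and PVT1, the long noncoding RNA gene beside it. The gap from 68372000 to 72934001 was wider, but the 70 Mb boundary cuts it and it is not counted here.

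**Figure D3:**
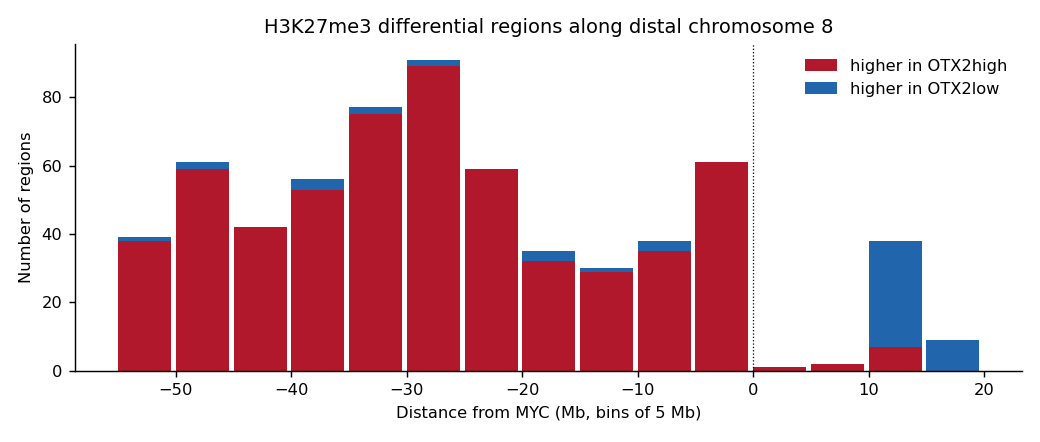
Number of H3K27me3 differential regions in bins of 5 Mb along distal chromosome 8, against the distance from MYC (dotted line), stacked by direction (red, higher in OTX2high; blue, higher in OTX2low). The bins before MYC hold 29 to 89 regions higher in OTX2high and 0 to 3 higher in OTX2low, and the bins from 10 Mb past MYC hold 7 and 40.

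Most of the regions higher in OTX2high had an enrichment ratio under 1. The ratio rests on the authors' scaling of IgG, which is not stated, so it is read here only against other regions of the table. Their median enrichment over IgG was 0.75 in OTX2high and 0.565 in OTX2low, and 532 of the 582 were under 1 in both conditions. Of the regions higher in OTX2high on the other chromosomes, 214 of 2452 were under 1 in both, with medians over all 2452 of 1.66 and 1.16. The H3K27me3 reads were alike in the 2 sets, at medians of 23.7 per kb in OTX2high and 15.9 in OTX2low on distal chromosome 8, and 24.1 and 16.2 on the other chromosomes. It was the IgG reads that differed, at 32.1 and 28.8 per kb against 16 and 15.4. In these called regions the H3K27me3 reads per kb were thus about the same as in those elsewhere while the IgG reads per kb were about 2.00 times as many in OTX2high. Both sets were called with the same windows and cutoffs, so alike H3K27me3 reads follow at least in part from the calling. They do not show how H3K27me3 reads go with IgG reads over the stretch as a whole.

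**Figure D4:**
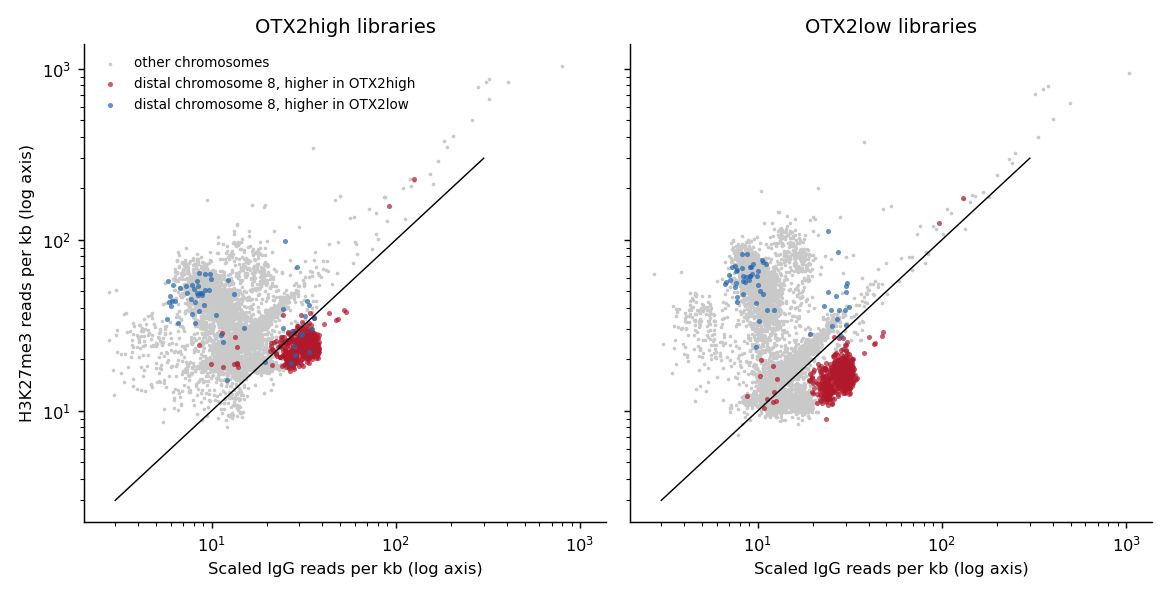
H3K27me3 reads per kb against scaled IgG reads per kb of every differential region in OTX2high (left) and OTX2low (right), on log axes. Grey points are regions of other chromosomes, red and blue points are distal chromosome 8 regions higher in OTX2high and in OTX2low, and the line marks a ratio of 1 after the authors' scaling. The red points form a group at about 32 IgG reads per kb that lies below the line in both conditions, while most blue points lie above it.

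These regions had more H3K27me3 reads than the mean window given in the table's header, which the search itself selects for. Their enrichment ratio was low against other regions. The mean count of a 10 kb window in the table's header, scaled as the reads are, was 102.7 in OTX2high and 88.9 in OTX2low. The regions higher in OTX2high had medians of 236.8 and 159.5 reads per 10 kb, 2.31 and 1.79 times that mean. Regions of the same direction on the other chromosomes had medians of 240.7 and 162.4, 2.34 and 1.83 times the mean. The header gives a cutoff of 2 deviations for a window to be searched. A read density above the mean plus 2 deviations in at least 1 condition was found in 581 of the 582 regions (99.8%). The same held for 2246 of the 2452 regions of this direction on the other chromosomes (91.6%). The authors' G-test p was above 1e-05 for 310 of the 582 (53.3%). The search threshold was 0.0001, but the deposited G-test p of these regions reached 0.000541. On the other chromosomes the G-test p was above 1e-05 for 978 of the 2452 regions of this direction (39.9%). The part of the raised IgG density in the number of regions called and in their direction was not tested.

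Direction went with enrichment over IgG across the table, and distal chromosome 8 held the low end. On the other chromosomes 214 of the 215 regions under 1 in both conditions were higher in OTX2high, and 122 of the 215 lay on chromosome 1, 54 on chromosome 17 and 27 on chromosome 13. Of the 1554 regions there with an enrichment of at least 4 in either condition, 13 were higher in OTX2high. On distal chromosome 8, 532 of the 533 regions under 1 and none of the 37 regions at 4 or more were higher in OTX2high. The single exception under 1 lay at 113427001 to 113438000 in CSMD3. It had 210.38 reads in OTX2high against 300.87 in OTX2low, a log2 ratio of -0.52 (95% interval -0.78 to -0.25).

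**Figure D5:**
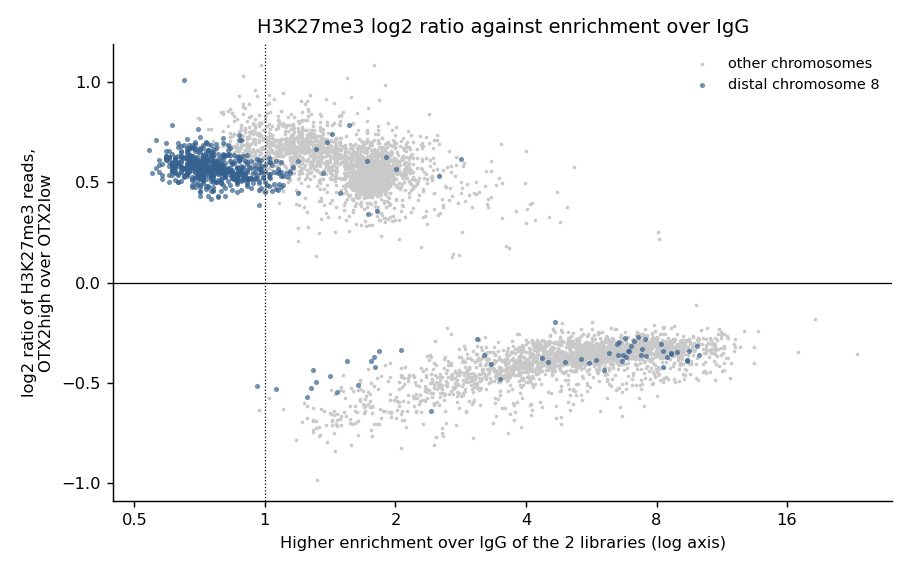
log2 ratio of H3K27me3 reads in OTX2high over OTX2low against the higher of the 2 enrichments over IgG (log axis; dotted line at 1). Blue points are distal chromosome 8 regions and grey points regions of other chromosomes. The 532 distal regions under 1 and above a log2 ratio of 0 lie left of most grey points, and the 37 distal regions enriched at least 4-fold all lie below 0.

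The authors' H3K27me3 peaks showed the same division. In the list labelled OTX2high, 3 of the 582 regions higher in OTX2high overlapped a peak (0.515%, exact Clopper-Pearson 95% interval 0.106% to 1.5%), and 56 of the 57 regions higher in OTX2low did (98.2%). In the list labelled OTX2low the counts were 6 of 582 and 43 of 57. On chromosomes 1 to 22 and X other than 8, 489 of 2431 regions higher in OTX2high (20.1%) overlapped a peak of the first list and 956 (39.3%) one of the second. The raised stretch as a whole was poor in peaks, with 4.68 per Mb in the first list and 3.37 in the second, against 52.1 and 33.2 on the other chromosomes. Of its 257 peaks in the first list, the 2 REXO1L regions held 7 and 45. Of its 185 in the second they held 15 and 105, so the density of the second list rests largely on that array. Beyond the stretch, on the same chromosome arm, there were 73.9 and 69.5 peaks per Mb. The peaks were called against IgG, so a raised IgG density enters this count as well. The fragment length used in calling was 169 bp for the first list and 78 bp for the second. Median peak lengths on the other chromosomes were 332 and 139 bp, and peaks covered 3.17% and 0.652% of those chromosomes. Differences between the 2 lists in number, overlap or coverage are therefore no measure of a difference in the mark.

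The 3 regions higher in OTX2high that overlapped a peak of the list labelled OTX2high included both REXO1L regions. The larger, from 85709001 to 85835000, had 28535.9 normalised reads in OTX2high and 22245.0 in OTX2low, the most of any distal region, and the smaller, from 85636001 to 85669000, had 5236.57 and 4124.7. Their log2 ratios were 0.36 (95% interval 0.33 to 0.38) and 0.34 (0.29 to 0.4), among the smallest of the regions higher in OTX2high, and both fall below 0 when recentred on the median of all regions. Reads from near-identical copies cannot be placed with certainty, and how such reads were handled is not given in the sources used here. The third region, at 139691001 to 139702000, overlapped KCNK9, the gene of a leak potassium channel, and had 268.69 and 174.92 reads with enrichments of 2.84 and 1.55.

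Of the 342 protein-coding genes of distal chromosome 8 in RefSeq (GRCh38.p14), 145 were overlapped, 124 of them only by regions higher in OTX2high, 16 only by regions higher in OTX2low and 5 by both. Within the raised stretch, 44.9% of the bases of regions higher in OTX2high were in protein-coding genes, against 36.7% of all bases of the stretch. Beyond the stretch, 18.5% of the bases of regions higher in OTX2low were in such genes, against 38.8% of all bases there. Long genes held several: VPS13B, which codes for a lipid transfer protein of the Golgi, 17 regions, ZFPM2 11, STK3, a kinase of the Hippo pathway, 10, and CSMD3, NCALD and the readthrough gene TPD52-MRPS28 8 each. All 17 regions of VPS13B were higher in OTX2high, as were the 11 of ZFPM2, and 8 of the 10 of STK3.

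Of 28 listed genes of growth and genome maintenance on distal chromosome 8, 15 were overlapped, all 15 only by regions higher in OTX2high. The 28 include the noncoding PVT1, which was not overlapped. Over all protein-coding genes there, 145 of 342 were overlapped and 124 of the 145 only by such regions, and the difference was not tested. The enrichment reached 1 in none of the 15 genes. EIF3H, a subunit of a translation initiation factor, had the largest ratio, with 212.66 reads in OTX2high against 125.07 for OTX2low over the region from 116691001 to 116702000 (log2 ratio 0.77, 95% interval 0.44 to 1.09). Its enrichments were 0.7 and 0.48. In ATAD2, a bromodomain protein, the region from 123372001 to 123399000 had 503.08 and 314.86 reads. In SQLE, an enzyme of sterol synthesis, the region from 124985001 to 125016000 had 596.83 and 391.83 reads. The regions of MTDH, YWHAZ, NBN, PABPC1 and DEPTOR had the same pattern, with log2 ratios between 0.5 and 0.69 and enrichments of 0.43 to 0.86.

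Developmental regulators had regions in both directions. Of 27 listed genes on distal chromosome 8, 12 were overlapped, 8 only by regions higher in OTX2high, 1 only by regions higher in OTX2low, and 3 by both. The share overlapped was near that of all genes there, 145 of 342, which split into 124, 16 and 5. Whether the directions differ from those of all genes was not tested. ZFPM2, a cofactor of GATA factors, had 11 regions with log2 ratios from 0.51 to 0.7 and enrichments of at most 0.72 in OTX2high and 0.55 in OTX2low. TRPS1, a GATA-type repressor, had 4 with log2 ratios from 0.65 to 0.7, and the region at TRIB1, a pseudokinase, had 186.37 and 111.95 reads (log2 ratio 0.74, 95% interval 0.39 to 1.08). EYA1, HEY1, MYC and OSR2 were among the 15 that no region overlapped.

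GDF6, a ligand of the BMP family, had the highest H3K27me3 enrichment ratios of the regions in the raised stretch, although the REXO1L regions had more reads per kb. Its 2 regions lay at 96128001 to 96146000 and 96152001 to 96168000. The first had 1255.4 reads in OTX2high and 1527.08 in OTX2low (log2 ratio -0.28, 95% interval -0.39 to -0.17), with enrichments of 2.4 and 3.09, and held 17 peaks of the list labelled OTX2high and 7 of the other. The second had 1570.97 and 1799.09 reads (log2 ratio -0.2, 95% interval -0.3 to -0.1), with enrichments of 3.93 and 4.66, and held 8 and 14 peaks, which covered 58.4% and 38.2% of it. Both were higher in OTX2low by a small margin, and the IgG density there, at 29.1 and 25 reads per kb in OTX2high, was raised as in the rest of the stretch. The 2 peak lists were called with unlike fragment lengths, so their numbers and shares are not compared with each other.

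ZFHX4, RUNX1T1 and RSPO2 each had 1 region of either direction. In ZFHX4, a zinc-finger homeobox gene, the region from 76674001 to 76684000 had 193.23 reads in OTX2high and 281.63 in OTX2low (log2 ratio -0.54, 95% interval -0.82 to -0.27), and the region from 76812001 to 76826000 had 283.55 and 197.66 (log2 ratio 0.52, 95% interval 0.25 to 0.79). In RUNX1T1, a transcriptional corepressor, the region from 92092001 to 92111000 had 525.94 and 742.55 reads and the region from 92016001 to 92036000 had 467.63 and 300.87. In RSPO2, a secreted amplifier of Wnt signalling, the region from 108076001 to 108092000 had 570.53 and 748.67 reads and the region from 107957001 to 107971000 had 321.28 and 234.4, a log2 ratio of 0.45 that falls to -0.02 when recentred on the median of all regions. In all 3 genes the region higher in OTX2low had the larger enrichment, at 1.47, 1.31 and 1.76 in OTX2low, and held peaks of the list labelled OTX2high, while the region higher in OTX2high was under 1 and held none.

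The 17 regions of the raised stretch that were higher in OTX2low shared this pattern. Their median enrichment was 0.99 in OTX2high and 1.55 in OTX2low, against 0.75 and 0.56 for the 572 regions of the other direction, while their IgG density was close to that of the 572, at 29.1 against 32.2 reads per kb in OTX2high. A peak of the list labelled OTX2high overlapped 16 of the 17, and a peak of the list labelled OTX2low 5. The 2 lists were called with unlike fragment lengths, so these counts are not compared with each other. PKIA, an inhibitor of protein kinase A, lay under one of the longest, from 78574001 to 78603000, with 1009.58 reads in OTX2high and 1437 in OTX2low (log2 ratio -0.51, 95% interval -0.63 to -0.39). The largest ratio of the 17 was in a region without a protein-coding gene, from 121263001 to 121295000, with 680.3 and 1008.43 reads (log2 ratio -0.57, 95% interval -0.71 to -0.42). SYBU, an adaptor of axonal transport, KCNS2, a silent potassium channel subunit, COL14A1, a collagen, and STK3 were the other protein-coding genes overlapped besides those named above.

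Of 29 listed neuronal and synaptic genes on distal chromosome 8, 17 were overlapped, 10 only by regions higher in OTX2high, 6 only by regions higher in OTX2low and 1, CSMD3, by both. Over all genes there, 145 of 342 were overlapped, with 124, 16 and 5 in the same order. The difference was not tested. The 6 were SYBU and KCNS2 in the raised stretch and TSNARE1, ADGRB1, ARC and LY6H beyond it. RIMS2, an organiser of the presynaptic active zone, had 7 regions higher in OTX2high with log2 ratios from 0.52 to 0.62 and enrichments of at most 0.84, and RALYL, an RNA-binding protein of neurons, had 4 with enrichments of at most 0.79. KCNK9 and FAM135B, both beyond the raised stretch, were higher in OTX2high with enrichments above 1, at 2.84 and 2.01 in OTX2high.

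The last 38 regions of the chromosome, from 141458001 to 144346000, were all higher in OTX2low. They covered 820 kb, and their enrichments had medians of 5.89 in OTX2high and 6.97 in OTX2low, with a range of 2.03 to 9.9 in OTX2high and 3.2 to 10.1 in OTX2low. Their IgG density, with medians of 8.35 and 8.72 reads per kb, was below that of regions on other chromosomes. Their log2 ratios were narrow, from -0.48 to -0.27, with a median of -0.36. The 2168 regions higher in OTX2low on the other chromosomes had a median of -0.37 and median enrichments of 3.88 and 5.21, so these 38 had the same small ratio at a higher enrichment.

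Adhesion, synaptic and LY6 genes lay in this cluster. ADGRB1, an adhesion receptor of neurons and glia, held 4 regions, the largest from 142504001 to 142568000 with 3324.88 reads in OTX2high and 4233.15 in OTX2low (log2 ratio -0.35, 95% interval -0.42 to -0.28) and enrichments of 7.68 and 8.65. ARC, an activity-regulated gene of synaptic plasticity, lay under the region from 142610001 to 142622000 with 655.14 and 829.14 reads and enrichments of 8.85 and 9.51. LY6H, a membrane-anchored protein of the brain, lay under the region from 143127001 to 143173000, with 2912.13 and 3803.72 reads (log2 ratio -0.39, 95% interval -0.46 to -0.31). The last region of all, from 144330001 to 144346000, overlapped SCRT1, a neuronal zinc-finger repressor, and had 698.59 and 853.63 reads with enrichments of 7.11 and 7.1. The highest enrichment of any distal region, 10.1 in OTX2low, was in a stretch without an annotated gene from 141597001 to 141620000, with 1478.36 and 1898.8 reads. The cluster also overlapped TSNARE1, PSCA, GML, LY6S, LY6L, RHPN1 and IQANK1.

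The 10 regions higher in OTX2high beyond the raised stretch had a lower IgG density than the 572 within it and a similar ratio. Their IgG density had a median of 13.3 reads per kb in OTX2high, 0.989 times that of regions on other chromosomes, and their median log2 ratio was 0.62. None of the 10 was under 1 in both conditions, and their median enrichments were 1.64 and 1.13. The largest ratio among them was at 135347001 to 135357000, with 179.51 and 104.08 reads (log2 ratio 0.79), in no protein-coding gene. The largest of all distal regions was at 76451001 to 76461000 in the raised stretch, also in no protein-coding gene, with 179.51 and 89.21 reads (log2 ratio 1.01, 95% interval 0.64 to 1.38) and enrichments of 0.65 and 0.38.

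MYC itself had no differential H3K27me3 region, and neither had PVT1. The nearest H3K27me3 region ended 76.4 kb before MYC. H3K4me3 was higher in OTX2high over MYC, with 1289.92 normalised reads against 1036.7 in the region from 127734401 to 127736000 (log2 ratio 0.32, 95% interval 0.19 to 0.44), and at the start of PVT1, with 1620.18 against 874.99 from 127794201 to 127800600 (log2 ratio 0.89, 95% interval 0.76 to 1.01). The median log2 ratio of all H3K4me3 regions was 0.56, so the MYC ratio lies below that of the table and the PVT1 ratio above it. Regions of few reads nearby went in both directions. There were 1.6 reads in OTX2high against 22.56 from 127746901 to 127748200, and 0 against 15.04 from 127893401 to 127894700. The region from 127876101 to 127877500, in PVT1, had 54.25 against 18.8 (log2 ratio 1.53, 95% interval 0.71 to 2.44). IgG density was 2.1 times that of other chromosomes in OTX2high over the first MYC region. It was 0.86 times over the region at the start of PVT1.

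H3K4me3 overlapped few of the regions. A peak of either H3K4me3 list lay in 62 of the 582 regions higher in OTX2high (10.7%) and in 19 of the 57 higher in OTX2low (33.3%). On chromosomes 1 to 22 and X other than 8, a peak of the OTX2high list lay in 8.47% of the regions higher in OTX2high and in 36.8% of those higher in OTX2low, close to the distal shares for that list of 10.3% and 33.3%. The authors' clusters of neighbouring differential regions left the density of H3K27me3 regions unmarked: none of the 61 H3K27me3 clusters was on distal chromosome 8, against 49 of 1964 for H3K4me3, the largest with 23 regions, in the REXO1L array.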

How the data were processed

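The authors compared conditions with diffReps 1.55.6 (G-test, windows of 10000 bp moved by 1000 bp for H3K27me3, p cutoff 0.0001), per the file headers. Their tables give per region the normalised reads of each library as a signal, the ratio of ChIP to IgG reads, a log2 ratio and deposited p-values. The command names the genome hg19, and the submitters' processing notes name GRCh38, Bowtie2 2.3.3.1 and MACS2 2.1.1.20160309; coordinates are those of the files. The deposited peak lists give pileup as signal, fold enrichment as a ratio and −log10 q-values, and the deposited cluster files a count of regions. Input names in the headers mark the reads as trimmed and deduplicated, and other read filters are not given in the sources used here.

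The log2 ratio was computed from the deposited reads, all of which are whole multiples of 1 constant per library within 0.05 of a read, and its 95% interval is exact (binomial, conditional on the sum). IgG reads are reads divided by the ratio; how the authors scaled IgG is not stated, so densities are compared only within a table. Stretches were found by least-squares partitioning of log2 IgG density (penalty 40 noise variances, tried at 10 and 20; at least 3 regions and 10 scaled IgG reads). The ChIP libraries held 20914582 to 40271458 tags and the IgG libraries 55079542 and 85840108. Steps were tested on simulated data with Python 3.11.15, pandas 2.3.3, numpy 2.4.6 and scipy 1.17.1. Overlaps are of at least 1 bp, and a gene end is within 2000 bp. Genes named are those of 3 lists (developmental, neuronal, growth), the largest ratios, reads, enrichments and IgG densities, and others chosen after their values were seen. The regions and lists were chosen with earlier results of these data known. Alternatives covered adjusted p, read minimum, recentring, boundary, labels, totals, comparison regions and peak thresholds. Some listed genes are not reported here.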

Additional observations from a re-analysis of the deposited data

How the results depend on the processing

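No paired analysis was possible because each condition had 1 library. For the number of regions higher in OTX2high, 582, the adjusted p limit of 1e-06 gave 67 of 86, the boundary at 100 Mb gave 272 of 319 and the sample labels gave 57 of 639. The median log2 ratio of 0.57 became -0.57 with the sample labels, 0.0896 recentred on all regions, 0.33 from summed reads, 0.57 with either the adjusted p limit or the 100 Mb boundary, and, in alternatives chosen after seeing the data, 0.36 recentred on the header means, 0.32 from summed reads without the REXO1L array and 0.403 from enrichments. The IgG density ratios of 2.34 (OTX2high) and 2.3 (OTX2low) became 1.79 and 1.6 from totals (1.7 and 1.51 without the REXO1L array, chosen after seeing the data), 2.00 and 1.87 over regions higher in OTX2high, 1.99 and 1.86 over regions under 2-fold, and 2.54 and 2.45 against chromosome 8 before 70 Mb. The median enrichments of 0.76 and 0.58 became 0.966 and 0.849 from totals. The number overlapping a peak of the list labelled OTX2low, 49, became 30 when peaks had to cover 10% of a region. Regions per Mb went from 8.51 to 1.15 at the adjusted p limit. Recentred on all regions, 4 of 112 named regions changed sign: 85636001 to -0.13, 85709001 to -0.12, 107957001 to -0.021 and 127478001 to -0.0172. The read minimum, the 60 and 80 Mb boundaries, the H3K4me3 table and the stricter peak q kept the other values near the main ones; causes were not tested. The number of reads in a region limits the precision of its ratio.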
